A study of Mus musculus with 32 samples.

Results

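The metallothioneins Mt1, Mt2, Mt3 and Mt4 and the metal-sensing transcription factor Mtf1 were followed through the mouse egg and the early and late 2-cell embryo. The members were chosen by gene symbol, and all 5 were found among the 54532 genes of the FPKM table. FPKM is the number of sequenced fragments per kilobase of gene, scaled to the depth of the library. Mt1 and Mt2 were at or near 0 in eggs, a few FPKM in most early 2-cell embryos, and between 552 and 1601 FPKM in every late 2-cell embryo. Mt4 fell from the early to the late 2-cell stage, Mt3 was close to undetected throughout, and Mtf1 stayed between 1.68 and 5.69 FPKM in all 32 libraries.

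Metallothioneins are small cysteine-rich proteins that bind zinc and copper. Mt1 and Mt2 are made in most tissues and respond to metals, glucocorticoids and oxidative stress, Mt3 is known mainly from the brain and Mt4 from stratified squamous epithelium. Mtf1 is a zinc-finger protein that senses free zinc and binds metal response elements in the promoters of its target genes, which include Mt1, Mt2 and the zinc exporter Slc30a1. Mouse eggs hold much zinc and release part of it at fertilization, and the embryonic genome is switched on mainly at the 2-cell stage.

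The study compared single metaphase II eggs and single 2-cell embryos with and without Trp53, the gene of the p53 tumour suppressor. There were 3 WT eggs, 3 Trp53 KO eggs, 8 WT and 6 Trp53 MZ-KO early 2-cell embryos, and 6 WT and 6 Trp53 MZ-KO late 2-cell embryos, each sequenced as its own SMART-seq library. The MZ-KO embryos lacked Trp53 from both the mother and the father. Their allele lost exons 2 to 10 through Cre recombinase driven by the germ cell gene Ddx4, and the WT controls were Trp53 flox/flox animals that kept those exons between loxP sites. All animals were of a mixed Bl6/C57 background, and no ages were given. Zygotes were taken 24 hours after hCG, the hormone that triggers ovulation, freed of cumulus cells in M2 medium and cultured in KSOM medium. The early stage was sampled 28 to 32 hours and the late stage 48 hours after hCG, so stage and time in culture cannot be told apart. The number of mothers behind a group is not given in the labels, so p-values measure the spread between single eggs or embryos. A level is a share of the library's RNA, and a larger share cannot be told apart from less RNA of other genes.

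Between 7210000 and 27600000 reads stood behind each library, with a median of 18250000. Trp53 itself was measured first. Its mean was 8.20 ± 1.76 FPKM (SD, n = 3) in the KO eggs against 7.86 ± 2.13 (n = 3) in WT eggs, and 2.82 ± 1.38 (n = 6) in MZ-KO late embryos against 3.24 ± 2.31 (n = 6) in WT late embryos. In early embryos it was 0.769 ± 0.326 FPKM (n = 6) in MZ-KO against 6.05 ± 2.64 (n = 8) in WT, the only one of these pairs whose ranges did not overlap. These values count the whole Trp53 span on both strands, not the deleted exons alone, and so are a weak check of the labels. They did not show the deletion in eggs and late embryos, and the genotypes below are those of the labels. WT early library 3 stood apart from the other 7 WT early embryos. Its median Spearman correlation with its own group, 0.812, was the lowest of all libraries. Of 141 genes below 1 FPKM in the other 7 WT early embryos and at 10 FPKM or more in every WT late embryo, 39.7% reached 1 FPKM in this library. The same share was at most 8.6% in each of the other 7. The main WT early values of Mt1 and Mt2 are given with and without it.

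The 4 metallothionein genes lie in 43131 bp of chromosome 8 in the mm10 build, all on the plus strand, in the order Mt4, Mt3, Mt2, Mt1. Mt4 spans chr8:94137197-94139031, Mt3 chr8:94152607-94154146, Mt2 chr8:94172664-94173568 and Mt1 chr8:94179082-94180327, with 5513 bp between Mt2 and Mt1. Mtf1 lies apart, at chr4:124802104-124849800 on the plus strand. The promoters of Mt1 and Mt2, the pair that rose together, and of Mt4, the member that fell, are shown because Mtf1 is known to act through short elements there. Each sequence holds the 250 bases before the RefSeq start of the gene on the plus strand (RefSeq, GRCm38.p6), at chr8:94178839-94179088 for Mt1, chr8:94172368-94172617 for Mt2 and chr8:94136954-94137203 for Mt4. Capitals mark matches to the metal response element core, searched on both strands as TGCACNC and TGCGCNC, where N is any base and no matches overlapped.
Mt1: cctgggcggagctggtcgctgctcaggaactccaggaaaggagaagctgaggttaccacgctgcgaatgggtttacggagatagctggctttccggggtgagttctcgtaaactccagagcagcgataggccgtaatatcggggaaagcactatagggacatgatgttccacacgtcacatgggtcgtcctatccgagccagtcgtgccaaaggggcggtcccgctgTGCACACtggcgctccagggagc
Mt2: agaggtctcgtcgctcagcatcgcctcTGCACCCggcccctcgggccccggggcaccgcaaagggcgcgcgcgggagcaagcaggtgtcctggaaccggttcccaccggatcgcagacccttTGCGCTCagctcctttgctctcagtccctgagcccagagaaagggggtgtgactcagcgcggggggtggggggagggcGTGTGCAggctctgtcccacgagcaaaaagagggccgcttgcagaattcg
Mt4: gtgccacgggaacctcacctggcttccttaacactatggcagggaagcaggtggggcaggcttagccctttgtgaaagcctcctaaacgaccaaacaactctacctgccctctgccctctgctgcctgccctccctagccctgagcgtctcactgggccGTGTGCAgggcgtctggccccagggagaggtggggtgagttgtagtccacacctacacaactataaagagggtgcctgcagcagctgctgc
Mt2 held 3 matches, at positions -223, -128 and -50 from the start, and 1.26% of the 32851 RefSeq windows of this length held as many. Mt1 held 1 match, at -23, and Mt4 held 1, at -91 on the minus strand. At least 1 match was present in 21.4% of all windows. No match was found in the 250-base windows of Mt3 and Mtf1. The Mt1 window ends just before the RefSeq start. A shorter annotated Mt1 transcript starts 122 bases after that start, at chr8:94179211, and 4 more matches lie in the 129 bases between the annotated GENCODE starts, which makes 5 in all up to the shorter start. With the 50 bases after each RefSeq start added, Mt2 held 4 matches, as did 0.517% of the 300-base windows, and Mt1 held 3, as did 1.97%. Mt3 and Mt4 then held 1 match each and Mtf1 none, where 25.7% of windows held at least 1. A match describes letters in the window and does not show binding.

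Mt1 rose at both steps, at low level from egg to early embryo and steeply from early to late embryo. All 3 WT eggs were at 0 FPKM, and of the 3 KO eggs 2 were at 0 and 1 was at 1.07 FPKM, from 18 reads. A count of 0 in a WT egg allows at most 0.162 FPKM, taking 3 reads as the limit and reads as independent. In the 8 WT early embryos Mt1 ran from 1.11 FPKM through a median of 4.74 to 55.1 FPKM in library 3. In the 6 MZ-KO early embryos it ran from 1.04 through 3.28 to 12.9 FPKM. Every early embryo had reads of Mt1, and in WT none overlapped with the eggs. The WT late embryos lay between 818 and 1160 FPKM with a median of 930.1, and the MZ-KO late embryos between 1059 and 1601 with a median of 1201. The lowest late embryo was thus far above the highest early one.

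The mean of Mt1 in WT rose from 10.5 ± 18.2 FPKM (SD, n = 8) early to 939 ± 124 FPKM (n = 6) late, a ratio of 89.3. Without library 3 the early mean was 4.14 ± 2.37 FPKM (n = 7) and the ratio 226.7. In MZ-KO embryos it rose from 4.65 ± 4.60 to 1267 ± 195 FPKM (n = 6 each), a ratio of 272.7. Tests were made with limma on log2(FPKM + 1) over all genes, and a gene was called where its adjusted p (Benjamini-Hochberg) was below 0.05. The early to late difference of Mt1 was 7.20 (SE 0.542, adjusted p = 4.5e-09) in WT, the 18th largest of 9319 genes by size. It was 8.18 (SE 0.42, adjusted p = 6.6e-10) in MZ-KO embryos, the 8th largest of 8944. From egg to early embryo the WT mean was at least 81.9-fold higher than 3 reads in each egg would give, and at least 32.4-fold higher without library 3. The fitted difference of that step, 2.66 (SE 0.757, adjusted p = 0.0117), depends on the pseudocount and was 5.66 with 0.1 in place of 1. In the KO-labelled libraries the egg to early difference was 1.77 (SE 0.615, adjusted p = 0.0372), or 3.79 with a pseudocount of 0.1. That call was lost without filtering (adjusted p = 0.134) and without KO egg 2, KO egg 3, or MZ-KO early embryo 3 or 4 (adjusted p = 0.1235, 0.1267, 0.0616 and 0.0638). In both genotypes Mt1 met the filter of 1 FPKM at the egg to early step through its early embryos. The direction of these tests thus followed from the filter. Without filtering the limma adjusted p of the WT step was 0.04998.

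Mt2 followed the same course. One WT egg had 0.503 FPKM, from 10 reads, and the other 5 eggs of both genotypes were at 0. WT early embryos ran from 1.99 through a median of 7.12 to 41.1 FPKM, again with library 3 highest, and MZ-KO early embryos from 2.28 through 4.39 to 15.8. WT late embryos ran from 552 through 687 to 968 FPKM and MZ-KO late embryos from 596 through 853 to 1034. Neither step showed overlapping values, eggs against early or early against late, in either genotype. The WT mean rose 62.5-fold from eggs to early embryos (36.4-fold without library 3) and then 67.5-fold to late embryos, or 116-fold without that library. Its late mean was 707 ± 141 FPKM (n = 6) in WT and 858 ± 163 FPKM (n = 6) in MZ-KO embryos. The MZ-KO early mean was at least 32.4-fold above 3 reads in each KO egg, and the late mean was 132.6 times the early one. In limma, the WT differences were 2.80 (SE 0.647, adjusted p = 0.00355) and 6.45 (SE 0.465, adjusted p = 2.7e-09), and the KO-labelled ones 2.64 (SE 0.482, adjusted p = 0.00161) and 7.09 (SE 0.359, adjusted p = 5.5e-10). With a pseudocount of 0.1 the egg to early differences of Mt2 were 5.22 in WT and 5.68 in the KO-labelled libraries. At the egg to early step Mt2 met the filter of 1 FPKM by its early embryos alone, so that direction followed from the filter. Without filtering the limma adjusted p of that step was 0.0191 in WT and 0.0112 in the KO-labelled libraries. Mt2 shares 749 bases with Gm45774, an antisense gene, and the counting did not use strand. Gm45774 rose with it, by 6.06 in WT from early to late, but with nearly the same read numbers as Mt2. The medians were 117.1 reads for both in WT early embryos, and 11635.7 for Gm45774 and 11683.7 for Mt2 in WT late embryos. The 2 values thus look like largely the same reads counted for both genes. The rise of Gm45774 is no separate observation, and the strand of these reads is not known.

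Calls for Mt1 and Mt2 stood against a broad change of all genes. From WT egg to early embryo 51.3% of 8619 genes were called, from WT early to late embryo 85% of 9319, from KO-labelled egg to early embryo 49.2% of 8305, and from MZ-KO early to late embryo 81.7% of 8944. A call alone at these steps was therefore common, and the size of the difference set Mt1 and Mt2 apart from the median gene, at 0.26 in WT and 0.39 in MZ-KO from early to late. By mean FPKM per genomic length, Mt1 ranked 28th and Mt2 48th of all genes in WT late embryos, and 18th and 32nd in MZ-KO late embryos. In WT early embryos their ranks were 1575 and 1580, or 3138 and 2425 without library 3. Introns count as length here, so such ranks favour genes with few introns. Annotated exons cover 100% of the Mt1 span and 65% of the Mt2 span.

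**Figure D1:**
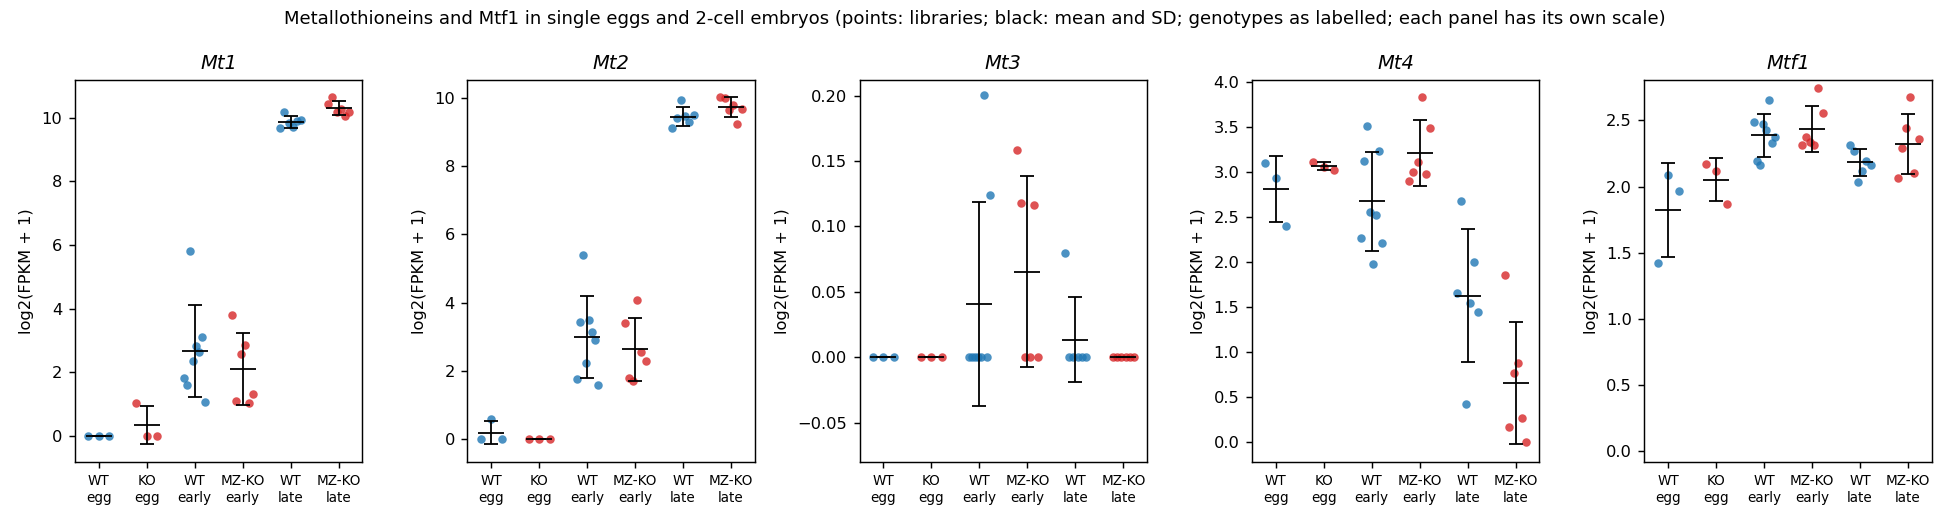
Level of each member in the 32 libraries as log2(FPKM + 1), by group with genotypes as labelled (points, libraries; black, mean and SD; scales differ between panels). Mt1 and Mt2 are at 552 FPKM or more in each late embryo, Mt4 is lowest in late embryos, and Mtf1 stays within 1.68 to 5.69 FPKM.

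Mt4 was present in eggs and was lower in late embryos. The WT eggs had 7.61, 6.62 and 4.29 FPKM and the KO eggs 7.64, 7.32 and 7.13. WT early embryos ran from 2.93 through a median of 4.82 to 10.4 FPKM and MZ-KO early embryos from 6.46 through 7.31 to 13.3. Eggs and early embryos overlapped in both genotypes, with limma differences of -0.14 (SE 0.32, adjusted p = 0.736) in WT and 0.15 (SE 0.213, adjusted p = 0.571) in the KO-labelled libraries. WT late embryos ran from 0.334 through 2.03 to 5.41 FPKM. MZ-KO late embryos had 2.63, 0.12, 0.698, 0.828, 0.197 and 0 FPKM, all below every MZ-KO early embryo. From early to late Mt4 fell by 1.05 on the log2 scale in WT (SE 0.318, adjusted p = 0.00604), from 5.82 ± 2.68 (n = 8) to 2.42 ± 1.70 FPKM (n = 6). In MZ-KO embryos it fell by 2.57 (SE 0.289, adjusted p = 1.4e-06), from 8.58 ± 2.67 to 0.745 ± 0.98 FPKM (n = 6 each), or by 4.11 with a pseudocount of 0.1. Mt4 met the filter of 1 FPKM there through its early embryos, so that direction followed from the filter. Only 21.7% of the Mt4 span is exonic, and FPKM here counts introns as length.

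Mt3 had between 1 and 4 reads in 6 of the 32 libraries and none in the other 26. Those 6 were 2 WT early embryos at 0.149 and 0.09 FPKM, 3 MZ-KO early embryos at 0.116, 0.085 and 0.084, and 1 WT late embryo at 0.057. A count of 0 allows up to 0.18 FPKM in the shallowest MZ-KO late library, by the same limit of 3 independent reads. Mt3 passed the filter of 1 FPKM in no comparison and was not tested, and its level could not be told from 0 at this depth.

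Mtf1 was expressed in every egg and embryo. The WT eggs had 1.68, 3.25 and 2.90 FPKM and the KO eggs 3.49, 3.35 and 2.64. WT early embryos ran from 3.48 through a median of 4.28 to 5.31 FPKM and MZ-KO early embryos from 3.96 through 4.12 to 5.69, above all eggs of their genotype. WT late embryos ran from 3.09 through 3.53 to 3.98 and MZ-KO late embryos from 3.18 through 4.01 to 5.41, overlapping the early ones. From egg to early embryo Mtf1 rose by 0.56 in WT (SE 0.162, adjusted p = 0.0123), from 2.61 ± 0.825 (n = 3) to 4.26 ± 0.597 FPKM (n = 8). It was 0.39 higher in the KO-labelled libraries (SE 0.144, adjusted p = 0.0479). The WT call was lost without WT egg 1 (0.36, adjusted p = 0.0825). The KO-labelled call was lost when any 1 of the 9 libraries was left out (adjusted p 0.0509 to 0.1885), without filtering (0.122) and with median-ratio scaling (0.1356). From early to late the difference was -0.21 in WT (adjusted p = 0.0906, 95% interval -0.44 to 0.03). In MZ-KO embryos it was -0.12 (adjusted p = 0.457, interval -0.42 to 0.19), or -0.36 (adjusted p = 0.0295) with median-ratio scaling. The step at which Mt1 and Mt2 rose by more than 6 on the log2 scale thus had no call for Mtf1 RNA on the FPKM scale as deposited. Mtf1 overlaps 1110065P20Rik on the other strand, which rose from 0.760 ± 0.396 to 4.28 ± 1.35 FPKM from early to late in WT (limma 1.58, SE 0.179, adjusted p = 5.3e-07). Its part in the Mtf1 value was not tested. Since 18.7% of the Mtf1 span is exonic, its FPKM is low for its read number, 1439 to 4744 reads per library.

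**Figure D2:**
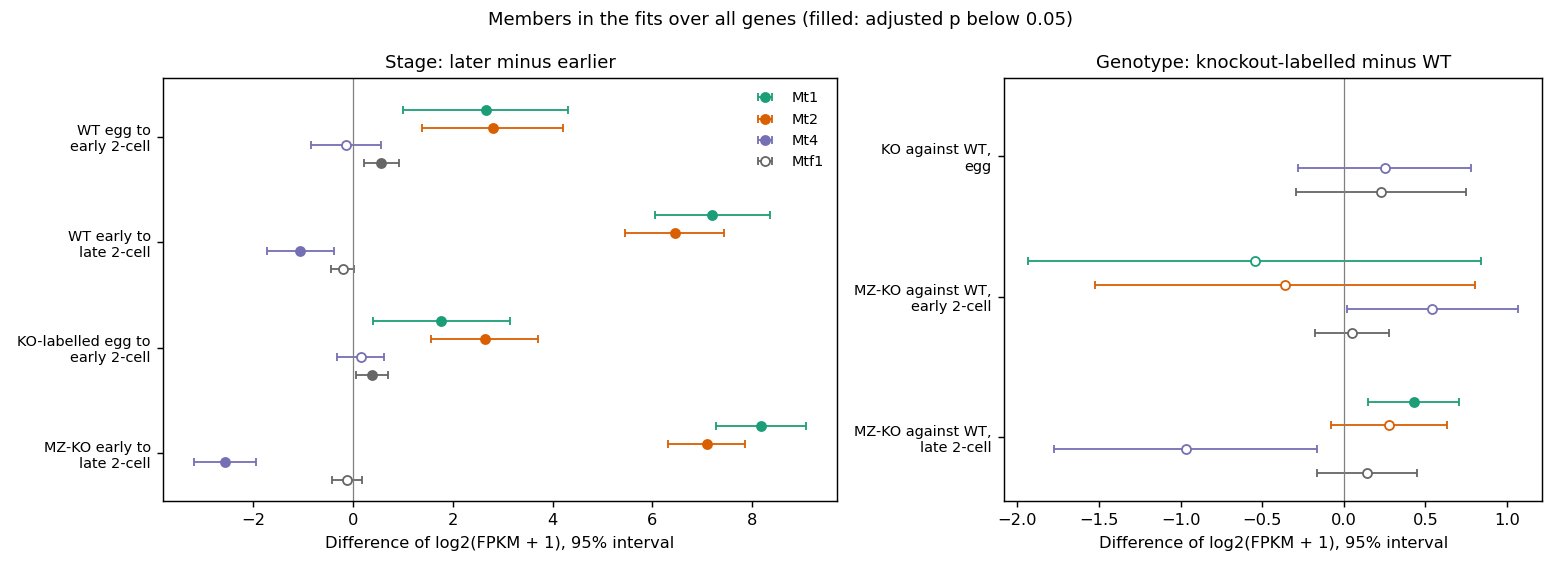
Differences of log2(FPKM + 1) for Mt1, Mt2, Mt4 and Mtf1 with 95% intervals, by stage (left) and by labelled genotype (right), on separate scales; filled points have an adjusted p below 0.05. Stage differences of Mt1 and Mt2 reach 7.20 and 6.45 in WT, and the only filled genotype point is Mt1 in late embryos at 0.43.

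Genotype differences of Mt1 and Mt2 were far smaller than their early to late differences. In eggs Mt1 and Mt2 did not pass the filter. Mt4 differed by 0.25 (95% interval -0.28 to 0.78, adjusted p = 0.788) and Mtf1 by 0.23 (interval -0.29 to 0.75, adjusted p = 0.804) between KO and WT eggs. Neither was called in limma or at an unadjusted p below 0.05, where 0.333% of 6607 genes were called, 0.212% higher and 0.121% lower in KO. In early embryos no member of 4 tested was called, where 3.28% of 7675 genes were called, 2.58% higher and 0.704% lower in MZ-KO. Mt1 was -0.55 (interval -1.93 to 0.84, adjusted p = 0.674) and Mt2 -0.36 (interval -1.53 to 0.80, adjusted p = 0.751) in MZ-KO against WT, and these became -0.10 and -0.02 without WT early library 3. Mt4 was 0.54 higher (interval 0.02 to 1.07, adjusted p = 0.220, unadjusted p = 0.0435), the only member below an unadjusted 0.05. Of the 7675 genes, 1635 were below it. Mtf1 differed by 0.05 (interval -0.18 to 0.28, adjusted p = 0.830).

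In late embryos Mt1 was 1.35-fold higher in MZ-KO than in WT embryos, the only call among 4 members tested. The 6 WT values were 818, 1160, 917, 829.3, 943 and 967 FPKM and the 6 MZ-KO values 1382, 1601, 1167, 1234, 1059 and 1161. All but 1 of the MZ-KO embryos were above every WT embryo. The limma difference was 0.43 (SE 0.129, interval 0.15 to 0.71, adjusted p = 0.0230), in a comparison where 31.9% of 8772 genes were called. The call did not hold under several settings. With median-ratio scaling, which divided the MZ-KO libraries by 1.06 to 1.17 and the WT libraries by 0.881 to 1.10, the difference was 0.23 (adjusted p = 0.287). The adjusted p was 0.0572 without filtering, 0.512 in a fit over all 6 groups, 0.0502 without WT late embryo 4 and 0.0506 without MZ-KO late embryo 1. The same scaling moved the share of called genes that were higher in MZ-KO late embryos from 58% to 40.8%, and the median of all genes from 0.07 to -0.07. Mt2 was 0.28 higher (interval -0.08 to 0.63, adjusted p = 0.215), and Mtf1 differed by 0.14 (interval -0.17 to 0.45, adjusted p = 0.475), or by -0.02 with that scaling. The authors' deposited table does not name its groups, and its values match late embryos with WT in the numerator. In the authors' deposited table Mt1 had a log2 fold change of -0.24 (SE 0.159, adjusted p = 0.318). For Mt2 the authors' deposited table gives -0.07 (adjusted p = 0.881), for Mt4 1.85 (adjusted p = 0.129) and for Mtf1 0.00 (adjusted p = 0.997).

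Mt4 was the member whose genotype difference changed with stage. It was 0.54 higher in MZ-KO early embryos and 0.97 lower in MZ-KO late embryos (-0.97, interval -1.78 to -0.16, adjusted p = 0.0641), and neither difference was called alone. With a pseudocount of 0.1 the late difference was -2.03 (adjusted p = 0.0692). The late difference passed with median-ratio scaling (-1.03, adjusted p = 0.0447), in the fit over all 6 groups (adjusted p = 0.0121), and without WT late embryo 3 (-1.21, adjusted p = 0.0176) or MZ-KO late embryo 1 (-1.21, adjusted p = 0.01996). The change of the difference from early to late was -1.51 (SE 0.454, adjusted p = 0.0194, limma contrast of 4 groups), where 20.4% of 11558 genes were called, 12% upward and 8.4% downward. It lay between -1.75 and -1.30 with any 1 of the 26 libraries left out, each time called (adjusted p 0.00419 to 0.0377). It was -2.66 with a pseudocount of 0.1, and was not called without filtering (adjusted p = 0.0528). For Mt1, Mt2 and Mtf1 the same contrast gave 0.97, 0.64 and 0.09 (adjusted p = 0.375, 0.511 and 0.731). From egg to early embryo none of 4 members was called or below an unadjusted 0.05 in limma, where 0.351% of 9676 genes were called, 0.217% upward and 0.134% downward.

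Mt1 and Mt2 were compared with each other in each library. The ratio of Mt1 to Mt2 FPKM was 0.841 ± 0.388 (n = 8) in WT early and 0.838 ± 0.784 (n = 6) in MZ-KO early embryos. In late embryos it was 1.36 ± 0.272 (n = 6) in WT and 1.49 ± 0.159 (n = 6) in MZ-KO, above 1 in 11 of 12 embryos. This order depends on the length used, since annotated exons cover 100% of the Mt1 span and 65% of the Mt2 span. Per exon length the late ratio was 0.885 ± 0.176 (n = 6) in WT and 0.971 ± 0.104 (n = 6) in MZ-KO, above 1 in 3 of 12 embryos. Mt2 reads also include any of Gm45774. Log2 differences of the ratio between groups do not depend on the length used. By exact permutation of the log2 ratio, two-sided, late exceeded early by 0.86 in WT (p = 0.0270, adjusted 0.0996 over 4 tests; without library 3, 0.98, p = 0.0128, adjusted 0.0513) and by 1.31 in MZ-KO (p = 0.0498, adjusted 0.0996). The same exact test between genotypes gave -0.30 early (p = 0.600) and 0.15 late (p = 0.316, adjusted 0.421). No ratio test passed after adjustment. The relation of Mt1 and Mt2 was also computed within groups. In MZ-KO late embryos r was 0.875 (permutation p = 0.0264) and rho 0.886 (permutation p = 0.0333), with r = 0.976 without the 2 farthest embryos. In WT early embryos r was 0.867 (permutation p = 0.0110) and rho 0.667 (p = 0.0831), and r fell to 0.275 without the 2 farthest, library 3 among them. In WT late embryos r was 0.143 (permutation p = 0.792) and rho 0.257 (p = 0.658). Mt2 and Mtf1 had r = -0.897 (permutation p = 0.0181) and rho = -0.886 (p = 0.0333) in WT late embryos, with r = -0.449 without the 2 farthest. Of 12 such relations among Mt1, Mt2 and Mtf1 none passed after adjustment, the lowest adjusted p for r being 0.106.

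**Figure D3:**
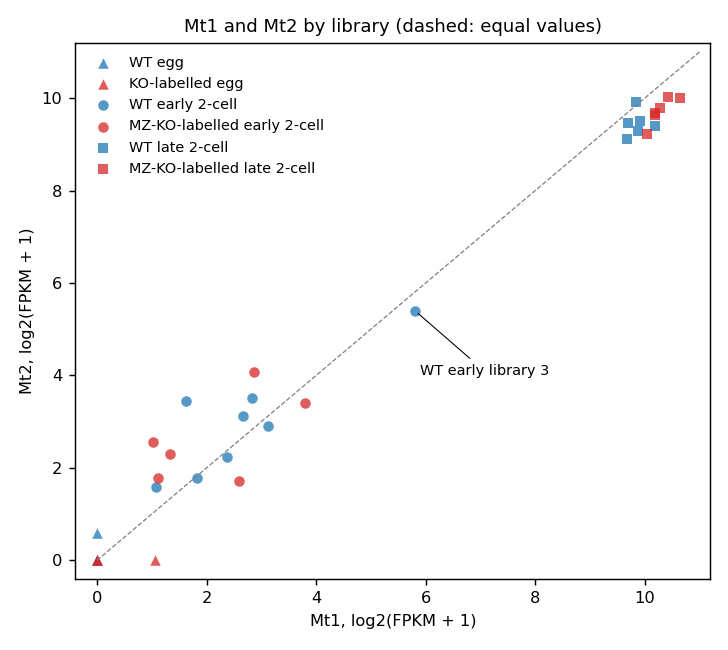
Mt1 against Mt2 in each of the 32 libraries, both as log2(FPKM + 1), with the group by colour and shape and a dashed line of equal values. The late embryos form 1 cloud near the line, 11 of 12 with a higher FPKM of Mt1 than of Mt2 per genomic span (3 of 12 per exon length), and WT early library 3 lies between the early and late clouds.

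The genes most like each member were sought among 11922 genes, by Pearson r of log2(FPKM + 1) over all 32 libraries, which share group and depth. For Mt1 these were Mt2 (0.988), the ubiquitin ligase gene Mkrn1 (0.988), the lysosomal protease gene Ctsl (0.985), the mitochondrial ribosomal gene Mrpl51 (0.985) and the survival gene Mcl1 (0.985). For Mt2 they were Mt1, Ctsl (0.984), the chaperone gene Dnajb9 (0.983), Mkrn1 (0.983) and the elongation factor gene Supt4a (0.980). With group means taken out, r between Mt1 and Mt2 was 0.755, or 0.547 without library 3. The nearest to Mt1 was then Drr1 (0.794), followed by Rps19 (0.786), Mgat2 (0.781) and Tdpoz5 (0.767), and the nearest to Mt2 were the homeobox genes Obox8 (0.823) and Obox6 (0.765), with Ctsl (0.722) and Ddit4l (0.721) behind Mt1. All of these values were lower without library 3, where r was 0.70 for Drr1, 0.50 for Rps19, 0.53 for Mgat2 and 0.61 for Tdpoz5 with Mt1, and 0.68 for Obox8, 0.57 for Obox6, 0.50 for Ctsl and 0.55 for Ddit4l with Mt2. Mtf1 had no such close companion. Its highest values were 0.778 with the chromatin remodelling gene Ino80e, 0.776 with Ensa, 0.758 with Arhgdia, 0.755 with Sarnp and 0.748 with Mfsd2a, and with group means taken out 0.682 with Efna4, 0.680 with Mir22hg, 0.668 with Bcl7b, 0.662 with Nipsnap1 and 0.660 with Jmjd6. Over all libraries r between Mtf1 and Mt1 was 0.07 and between Mtf1 and Mt2 0.12.

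The other genes of metal handling were read from lists of 61 genes in all, for zinc export (Slc30), zinc import (Slc39), copper, iron and reported Mtf1 targets. From WT egg to early embryo 8 of 21 tested genes rose and 7 fell, where 30.4% of all genes rose and 20.9% fell. With median-ratio scaling 49.2% of the called genes of that step were higher, in place of 59.3%. Slc30a3, a vesicle zinc transporter, rose from 2.12 ± 0.366 (n = 3) to 17.7 ± 5.99 FPKM (n = 8), by 2.53 (SE 0.262, adjusted p = 1.4e-05). The ferritin genes Fth1 and Ftl1, which store iron, rose by 2.03 and 1.74, and the haem oxygenase gene Hmox2 by 1.20. The iron chaperone gene Pcbp2 fell by 1.88, the iron-sulphur scaffold gene Iscu by 1.04, Slc30a4 by 1.03 and Slc30a1, the zinc exporter of the plasma membrane and an Mtf1 target, by 0.96. From KO-labelled egg to early embryo 8 of 21 rose and 6 fell, where 29.2% of all genes rose and 20% fell. Slc30a3 rose by 2.46, Fth1 by 2.32, Ftl1 by 1.75 and the selenoprotein gene Selenow by 1.68. Pcbp2 fell by 1.31, the zinc importer Slc39a10 by 1.22, Slc30a5 by 1.01 and Slc30a4 by 0.88. Some genes met the filter by 1 stage alone. In WT these were Slc39a7, Sco2, Hmox1 and Hmox2 by early embryos, and Slc30a4 and Slc31a2 by eggs. In the KO-labelled libraries they were Slc39a7 and Hmox2 by early embryos, and Slc30a4, Slc30a5 and Slc31a2 by eggs. The direction of such genes followed from the filter, and the counts include them.

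From early to late 2-cell, the step at which Mt1 and Mt2 rose most, 15 of 25 tested metal genes rose and 6 fell in WT, and 18 of 28 rose and 5 fell in MZ-KO embryos. Over all genes 46.6% rose and 38.4% fell in WT, and 48.3% rose and 33.3% fell in MZ-KO. The median difference of the tested metal genes was 0.67 in WT and 1.15 in MZ-KO, against 0.26 and 0.39 over all genes. Some genes met the filter by their late embryos alone, in WT Tfrc, Slc39a4, Slc25a28, Sco1 and Slc30a5 among them. In MZ-KO embryos Ccs, Cox17 and Cox19 did so too. Slc30a3 and Ncoa4 met it in WT by their early embryos alone. The filter thus set the direction of such genes, and the counts and medians include them. The transferrin receptor gene Tfrc rose in WT from 0.638 ± 0.391 (n = 8) to 40.1 ± 7.39 FPKM (n = 6), by 4.66 (SE 0.17, adjusted p = 1.8e-12). Slc39a4, a zinc importer of the cell surface, rose from 0.409 ± 0.385 to 33.1 ± 15.4 FPKM, by 4.51 (SE 0.256, adjusted p = 1.6e-10). In MZ-KO embryos these rose by 4.03 and 3.26. Sco2, a copper chaperone of cytochrome oxidase, rose by 2.93 and 3.03 in WT and MZ-KO, the mitochondrial iron transporter gene Slc25a28 by 2.90 in WT, and Ftl1 by 2.74 in MZ-KO. In WT Slc30a3 fell by 3.64, Selenow fell by 3.43, the ferritin autophagy receptor gene Ncoa4 fell by 2.71 and the zinc importer Slc39a6 fell by 1.26. In MZ-KO embryos Slc30a3 fell by 3.67, Selenow fell by 1.70, Ncoa4 fell by 2.21 and Slc39a6 fell by 0.88. Of the 11 reported Mtf1 targets besides metallothioneins, 4 were tested in WT, and 2 rose and 2 fell. In MZ-KO embryos 1 of 3 rose and 2 fell. Slc30a1 rose by 2.74 in WT (SE 0.256) and 1.51 in MZ-KO (SE 0.245), Gclc, of glutathione synthesis, rose by 1.498 in WT, where it passed the filter through the late embryos alone. In MZ-KO embryos Gclc was 0.0695 ± 0.0399 FPKM early and 0.937 ± 0.214 late (n = 6 each) and missed the filter, so the counts of the 2 genotypes are not over the same genes. Selenow and Slc39a10 fell in both.

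**Figure D4:**
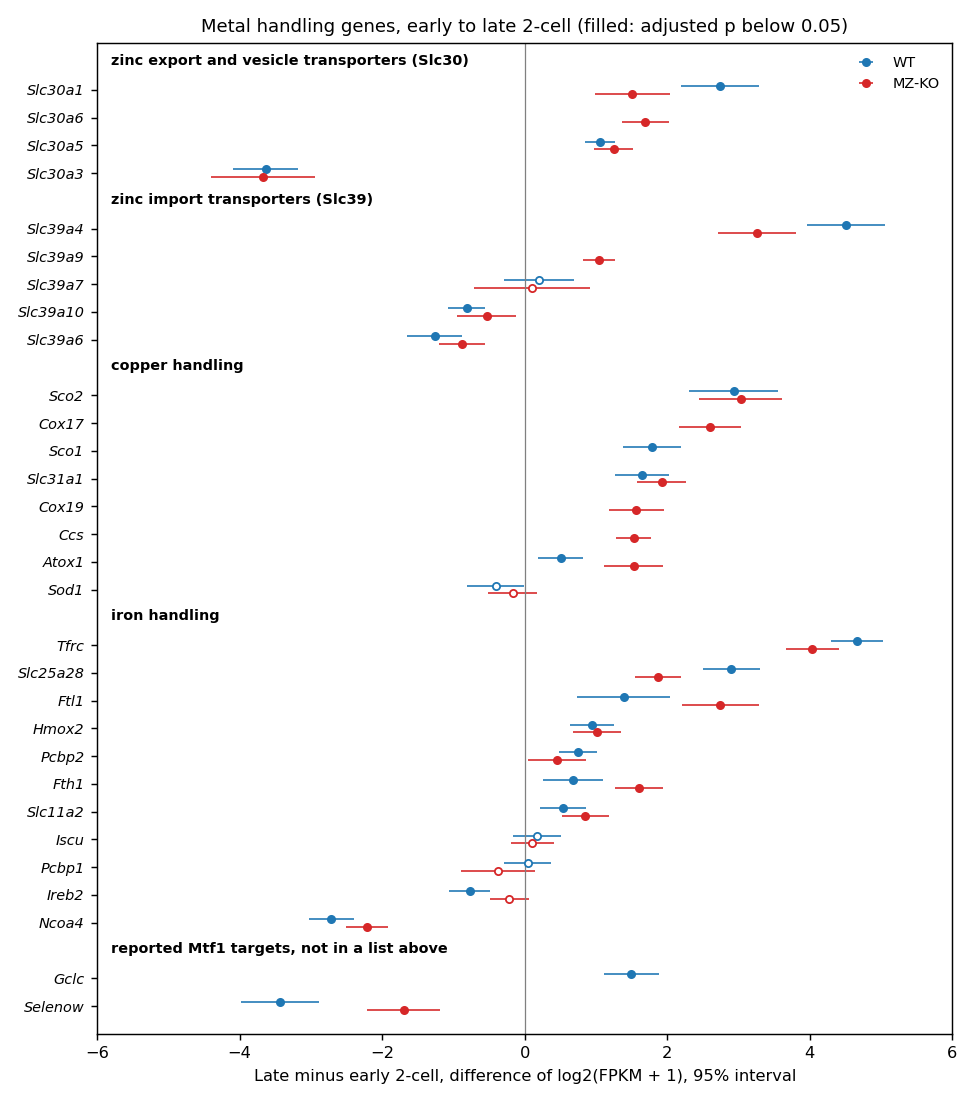
Late minus early 2-cell difference of log2(FPKM + 1) with its 95% interval for each tested gene of the metal lists, in WT (blue) and MZ-KO-labelled (red) embryos; filled points have an adjusted p below 0.05. Tfrc and Slc39a4 lie farthest to the right and Slc30a3 and Selenow farthest to the left.

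Between the genotypes no metal gene of 18 tested was called in eggs, by limma or at an unadjusted p below 0.05. Over all 6607 genes 0.333% were called there and 577 were below an unadjusted 0.05. In early embryos 1 of 18 was called, Iscu, 0.61 higher in MZ-KO (SE 0.125, adjusted p = 0.0197), and 3 of 18 were below an unadjusted 0.05. Over all 7675 genes 3.28% were called and 1635 were below an unadjusted 0.05, so these counts do not set the metal genes apart. In late embryos 9 of 28 were higher and 5 lower in MZ-KO, where 18.5% of all genes were higher and 13.4% lower. Selenow was 1.79 higher (SE 0.349, adjusted p = 0.00219), at 12.9 ± 6.03 against 3.07 ± 1.63 FPKM (n = 6 each). The copper chaperone genes Cox19, Cox17 and Atox1 were higher by 1.48, 1.43 and 1.27. Slc39a4 was 1.34 lower (SE 0.341, adjusted p = 0.00996), at 12.3 ± 5.65 against 33.1 ± 15.4 FPKM (n = 6 each). Slc25a28, Sco1 and Tfrc were lower by 1.24, 1.09 and 0.79. Cox19 and Ccs met the filter of this comparison through their MZ-KO embryos, and Sco1 and Gclc through their WT embryos. The direction of such genes followed from the filter, and the counts of higher and lower genes include them. Slc30a1 was 6.86 ± 3.17 against 13.6 ± 7.21 FPKM (n = 6 each), a difference of -0.83 that was not called (adjusted p = 0.0800). Its genotype difference changed from early to late by -1.23 in limma (SE 0.368, adjusted p = 0.0189). For Mt1 the same contrast was 0.97 (95% interval -0.55 to 2.50, adjusted p = 0.375) and did not pass. Slc30a1 and Mt1 were not tested against each other. For that contrast median-ratio scaling moved the share of higher calls from 58.9% to 33.9%.

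Markers of the labelled cells were read beside the members. The 10 oocyte genes summed to between 1122 and 1689 FPKM in eggs and between 634 and 1303 in early embryos, which overlapped. In late embryos they summed to between 49.2 and 160 FPKM. Of 10 genes of the 2-cell stage, 4 were listed at 0 in all eggs, and all 10 in WT early embryos had a mean of 1 FPKM or more. These 10 summed to 18.3 to 34.2 FPKM in eggs, 33.6 to 254 in early and 58.4 to 309 in late embryos. The sums of eggs and WT early embryos thus overlapped. From WT egg to early embryo Tdpoz4, Tcstv1 and Tcstv3 were not called by limma, and the others of the list were called higher. The 14 cumulus and granulosa cell markers summed to 0.457 to 0.839 FPKM in eggs, 0.602 to 2.06 in early and 4.92 to 12.3 in late embryos. Within the early stage, the 3 embryos with the highest sum of Mt1 and Mt2 (22.001 to 96.2 FPKM, WT early library 3 highest) had cumulus sums of 1.30 to 2.06 FPKM, against 0.602 to 0.918 in the other 11 (3.10 to 16.5 FPKM). The higher late sum lay mostly in 1 gene, Amhr2, at 7.70 ± 2.36 FPKM (n = 6) in WT and 5.79 ± 1.33 (n = 6) in MZ-KO late embryos, the only one of the 14 at a mean of 1 FPKM or more there. Ptx3, a marker of expanded cumulus, was listed at 0 in every group. The sum was thus higher in late embryos and in the 3 early embryos with most Mt1 and Mt2. In the other 11 early embryos it overlapped that of eggs. The sum of Mt1 and Mt2 was 3.10 to 16.5 FPKM in these 11 and at most 1.07 FPKM in eggs. The part of cumulus cell RNA in the levels of Mt1 and Mt2 was not tested.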

How the data were processed

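RNA of 32 single eggs and 2-cell embryos was read with SMART-seq v4, after lysis in 5 uL and with 15 PCR cycles, per the labels' protocols. The authors' deposited table gives FPKM per gene and library. Per the submitters' processing notes, TopHat2, DESeq, DESeq2 and mm10 were used, with versions not given in the sources used here. For 1 comparison the deposited table adds log2 fold changes, standard errors and adjusted p-values. Its groups are unnamed and were inferred by correlation with log ratios of mean FPKM, WT to MZ-KO, which gave 0.9995 in late embryos, 0.1498 in early embryos and 0.0236 in eggs. One column header with transposed letters was assigned to MZ-KO late embryos, where the authors' mean column equals the mean of these columns within 3.3e-06. Headers give groups without replicate numbers, so libraries were numbered in column order.

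Low FPKM values were whole multiples of 1 read in 99.1% to 99.8% of cases, within 0.1 read in genes spanning at most 2000 bp, when length was the genomic span. This gave the read numbers and shows that introns count as length. Gene positions come from GENCODE M 21 and promoters from RefSeq. Overlapping genes were counted without strand.

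Tests used limma 3.58.1 (trend and robust) with statmod 1.5.0 in R 4.3.3, on log2(FPKM + 1). A pseudocount of 1 understates changes of low genes. Each fit held the groups compared and kept a gene if the number of libraries where it reached 1 FPKM was no lower than the size of the smaller group. A gene could thus pass by 1 group alone, and its direction then followed from the filter. P-values were adjusted over all genes tested. The difference between genotype effects of stages was a contrast of 4 groups. Alternatives were a pseudocount of 0.1, no filter, a filter of 5 FPKM, median-ratio scaling, a fit over all 6 groups and leaving out each library. The script was tested on simulated data. Mt4 was added to the alternatives after its values were seen, as were leaving out early libraries in the contrasts of 4 groups and the 300-base promoter windows. Named genes were the members, up to 4 called metal genes with the largest rise and fall per comparison, genes within 100 kb of the cluster or overlapping a member, and the 5 genes most like Mt1, Mt2 and Mtf1 by each measure. Gclc and Amhr2 were named after their values were seen, as were genes named only for the group by which they met the filter. The members and lists were chosen with earlier results of these data known. Python 3.11.15, numpy 2.4.6, pandas 2.3.3 and matplotlib 3.10.9 were used for tables and figures. Limits from 3 reads cover counting error only and take reads as independent. Low read numbers were often even, such as 18 for Mt1 and 10 for Mt2 in eggs. If both ends of a fragment were counted as reads, these limits are too low and the folds over them too high. This was not tested. The highest Pearson r between libraries of a group was 0.975, and no library was merged.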

Additional observations from a re-analysis of the deposited data

Results flagged for a closer look

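In 19 pairs of a member and a group of 4 to 10 libraries, the highest or lowest library was tested for a gap to the rest by Dixon's criterion, and 4 pairs had one. Chance marks about 5% of groups where values are normally distributed, which was not checked for FPKM, so 4 of 19 cannot be set against it. WT early library 3 was far above the other 7 for Mt1, at 55.1 FPKM, and for Mt2, at 41.1 FPKM. The same library had raised levels of many late genes, as given above, and its part in the WT early means is shown by the values without it. MZ-KO late library 1 was above the other 5 for Mt4, at 2.63 FPKM. WT late library 1 was the only one of its group with Mt3 reads, at 0.057 FPKM from 2 reads. With 1 library above 0 the gap equals the whole range, so this pair was bound to be marked. The difference of Mt4 between MZ-KO and WT changed from early to late embryos by -1.51 on the log2 scale (limma, adjusted p = 0.0194).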

How the results depend on the processing

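No paired analysis was possible because the columns name only the group and carry no replicate number. Of 642 values of the members under other settings, 604 kept their direction and their side of the threshold, 23 lost a call, 5 gained one and 10 changed sign; the causes were not tested. The early to late calls of Mt1, Mt2 and Mt4 in both genotypes, and the egg to early calls of Mt2, held under every setting that gave a value. Without filtering, calls were lost for Mt1 (1.77) and Mtf1 (0.39) from KO-labelled egg to early embryo, for Mt1 between genotypes in late embryos (0.43) and for the Mt4 genotype difference late minus early (-1.51). With median-ratio scaling, Mtf1 (0.25) lost its call from KO-labelled egg to early embryo and Mt1 (0.23) its late genotype call, Mtf1 gained one from MZ-KO early to late (-0.36) and Mt4 one between late genotypes (-1.03). The same scaling turned the sign of Mt4 from KO-labelled egg to early embryo (-0.002), of Mtf1 between late genotypes (-0.017) and of its late minus early genotype difference (-0.12). In the fit over all 6 groups Mt1 lost (0.43) and Mt4 gained (-0.97) a call between late genotypes. A pseudocount of 0.1 turned the early minus egg genotype difference of Mt2 to 0.46.

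Leaving out 1 library at a time gave these ranges. From WT egg to early embryo Mt4 ran from -0.34 to 0.009, positive without WT egg 1, and Mtf1 from 0.36 to 0.69. From KO-labelled egg to early embryo Mt1 ran from 1.43 to 2.12 and Mtf1 from 0.29 to 0.45. Between early genotypes Mtf1 ran from -0.01, without MZ-KO early library 5, to 0.089. Between late genotypes Mt1 ran from 0.36 to 0.49 and Mt4 from -1.21 to -0.76. The early minus egg genotype difference ran from -0.45 to 0.18 for Mt2, positive without WT early library 3 (0.18) or MZ-KO early library 2 (0.004) or 3 (0.018), and from -0.31 to 0.025 for Mtf1, positive without WT egg 1. A filter of 5 FPKM gave no value for Mtf1 in any comparison, for Mt2 from KO-labelled egg to early embryo, or for Mt4 from WT early to late and between late genotypes.

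Counts of called genes moved by over 1.5 times mainly with the filter. With 5 FPKM they were 2011 against 4423 (WT egg to early; metal genes 8 against 15), 3554 against 7923 (WT early to late; 11 against 21), 1968 against 4086 (KO-labelled egg to early; 6 against 14), 3306 against 7303 (MZ-KO early to late; 10 against 23), 1502 against 2802 (late genotypes; 5 against 14) and 1194 against 2363 (genotype difference late minus early; 6 against 15). Without filtering, 15824 (41 metal genes) were called from WT early to late and 14095 (40) from MZ-KO early to late. Over all settings the count ran from 6 to 38 against 22 between eggs, from 56 to 430 against 252 between early genotypes (metal genes 0 or 1) and from 9 to 75 against 34 for the early minus egg genotype difference. The egg groups hold 3 libraries each, and levels under about 0.2 FPKM rest on few reads.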

Other observations

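Genes around the metallothionein cluster did not all follow Mt1 and Mt2. Nup93, a nuclear pore gene downstream of Mt1, was 1.34 ± 0.478 FPKM (n = 8) in WT early and 1.56 ± 0.313 (n = 6) in WT late embryos, a difference of 0.15 that was not called by limma (SE 0.153, adjusted p = 0.354). In MZ-KO embryos the difference of Nup93 was -0.23 (SE 0.12, adjusted p = 0.0852). Bbs2, a gene of the primary cilium upstream of Mt4, rose from 0.331 ± 0.169 to 2.24 ± 0.558 FPKM (n = 6 each) in MZ-KO embryos (1.27, SE 0.131, adjusted p = 5.0e-07). There it met the filter by its late embryos alone, so that direction followed from the filter. In WT Bbs2 was 0.152 ± 0.0549 (n = 8) and 1.59 ± 0.628 FPKM (n = 6). It did not pass the filter in WT, where late library 1 was at 0.642 FPKM. The ribosomal pseudogene Rpl10-ps5 rose from 6.13 ± 1.89 (n = 8) to 116 ± 41.7 FPKM (n = 6) in WT (3.98, SE 0.259, adjusted p = 7.2e-10), and its reads may be shared with copies of Rpl10. Ogfod1 stayed at a mean below 1 FPKM in all 6 groups.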
